A study of Rattus norvegicus with 3 samples.

Results

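The genes described here are 37 surface, signalling and effector genes of macrophages, chosen by name. They run from the receptor for the macrophage growth factor (Csf1r) and the transcription factor PU.1 (Spi1) to Fc receptors, the phagocyte NADPH oxidase and secreted products such as lysozyme. Of the 37, 35 had at least 1 probe under that name or an older one on the array, and 33 were measured, among 21774 genes measured in all. No probe was named Cd53 or Fcer1g, and the probes of Cd163 and Was were not well above background in either channel.

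The study compared the rat F65 line of induced pluripotent stem (iPS) cells, untreated and maintained on irradiated mouse embryonic fibroblasts, with a control named mix1. Mix1 mixed 2 untreated cultured adult rat cell types, bone marrow cells and primary ear fibroblasts. Each of 3 iPS F65 samples, in Cy3, was hybridised against mix1, in Cy5, on its own 2-colour Agilent array. Genotype, strain and animal age were not given in the labels used here, nor was how much of mix1 each cell type supplied. Mix1 is 1 control sample that was put on every array, so its own spread is left out of every test, and the labels do not say that the iPS samples were separate cultures. What the p-values measure is only how far these samples spread, and that spread may be technical. The iPS cells were in Cy3 on all 3 arrays, so a dye effect and the difference between the cells cannot be told apart.

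Many macrophages arise from bone marrow precursors that need the growth factor CSF1 to survive. PU.1 is the transcription factor that sets up the gene programme of the lineage. At their surface macrophages carry receptors for microbial molecules, scavenger receptors for modified lipoproteins and dead cells, and Fc receptors for antibody. Several of these receptors have no signalling tail and work through small adaptors, DAP12 (Tyrobp) and the Fc receptor gamma chain (Fcer1g), whose ITAM motifs recruit kinases once phosphorylated. Downstream, the cell rearranges actin, makes superoxide with the NADPH oxidase and produces leukotrienes. Pluripotent stem cells are not of the blood lineage, and PU.1 and CD45 are classic markers of blood cells.

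The tissue labels were checked against marker genes first. Of 12 defining macrophage markers (Adgre1 and 11 of the genes described here), 11 were well above background in mix1 on all 3 arrays, and Cd163 was on none. In iPS F65, 5 of the 12 were above background on all 3 arrays and 6 on none. The fibroblast collagen gene Col1a1 was lower in iPS F65 by a log2 ratio of -7.05 ± 0.11 (SD, n = 3), Thy1, a fibroblast surface antigen, was at least 27.7-fold lower, Sox2 was higher by 2.47 ± 0.35, Dnmt3b by 3.52 ± 0.10, and Pou5f1 by at least 2.49-fold. Thy1 entered the test through mix1 alone and Pou5f1 through iPS F65 alone, so the filter fixed the direction of each. Not all pluripotency markers were higher, since Lin28a had a ratio of -0.36 ± 0.05 and Esrrb was above background on no array. Between 57.1% and 61.2% of gene spots were well above background in iPS F65 and between 58.3% and 62.1% in mix1, and the number of arrays, 3, limits the precision. In bulk RNA, fewer cells of a type and less RNA per cell cannot be told apart. Mouse feeder RNA in the iPS samples was not measured.

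The macrophage genes were lower in iPS F65, most of them by a wide margin. The log2 ratio used throughout is iPS F65 over mix1 after background correction and loess dye normalization, and a gene was called at a limma adjusted p under 0.05, adjusted over all genes tested, and a change of at least 2-fold. Of the 33 measured genes, 31 were called lower and 0 higher, where 26.1% of all genes tested were lower and 18.3% higher. The median log2 ratio over the 33 was -5.02, against -0.08 over all genes tested, and the range was -7.53 (Lyz2) to -0.83 (Lyn). All 33 were well above background in mix1 on all 3 arrays, but in iPS F65 only 18 were above it on all arrays, 5 on 1 or 2 arrays and 10 on none. The latter 15 entered the test through mix1 alone and had to come out lower, so the count over all 33 is a description. The same holds for the direction and p-value of each of these 15 genes below. Of the 18 genes measured in both channels on all arrays, 17 were called lower, and in a fit restricted to such genes 22.7% of all genes were. At least 16-fold lower were 21 of the 33 (4.39% of all genes tested), 15 of them among the 18 and 6 above background on no iPS array. The share at this limit among all genes measured in both channels was not counted.

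**Figure D1:**
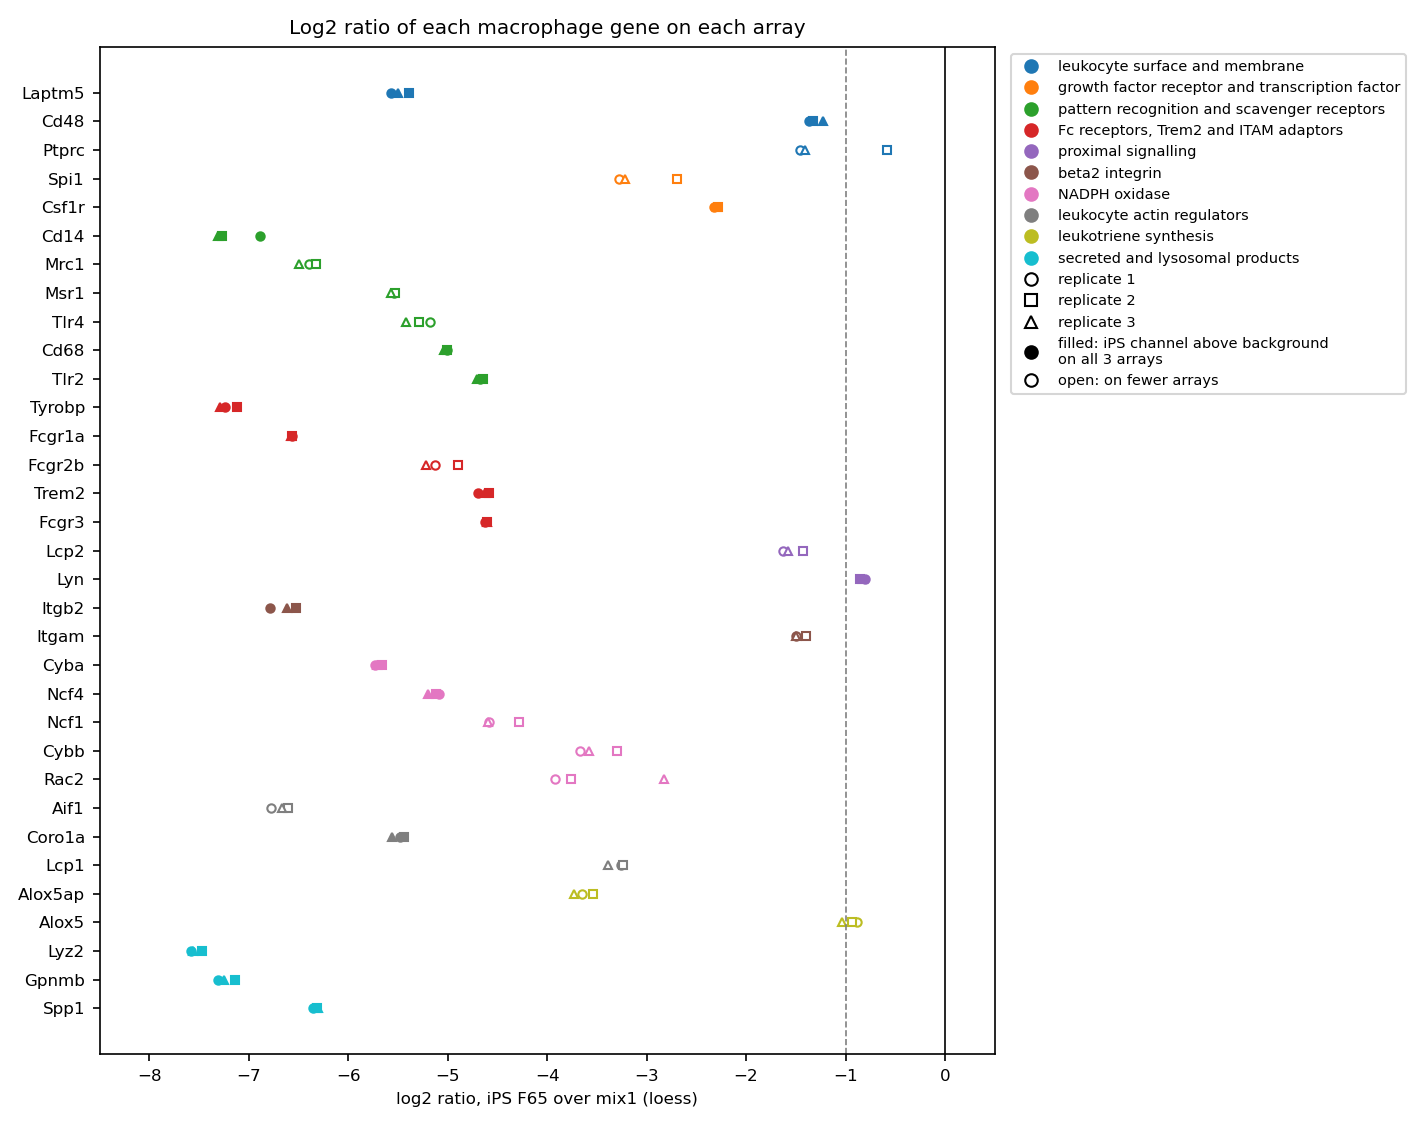
Log2 ratio of iPS F65 over mix1 (horizontal axis, after loess) for each of the 33 measured macrophage genes (vertical axis), coloured by role, with 1 symbol per array. Every point lies left of 0, the dashed line marks a 2-fold decrease, and only Ptprc, Spi1 and Rac2 spread over the arrays with an SD above 0.25.

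The scanner software's processed signals show the same genes before any ratio is taken. Processed signals are in intensity units, corrected for background and dye by that software, so their quotient differs somewhat from the loess ratio. Summed over the 35 genes with a probe, they came to 16000 to 19400 in iPS F65 and 633000 to 736000 in mix1. A few bright genes weigh heavily in the mix1 sums, such as Gpnmb, with 109480 to 130090 in mix1. The 2 sets of sums do not overlap, but for how many of all genes the channels separate was not counted.

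**Figure D2:**
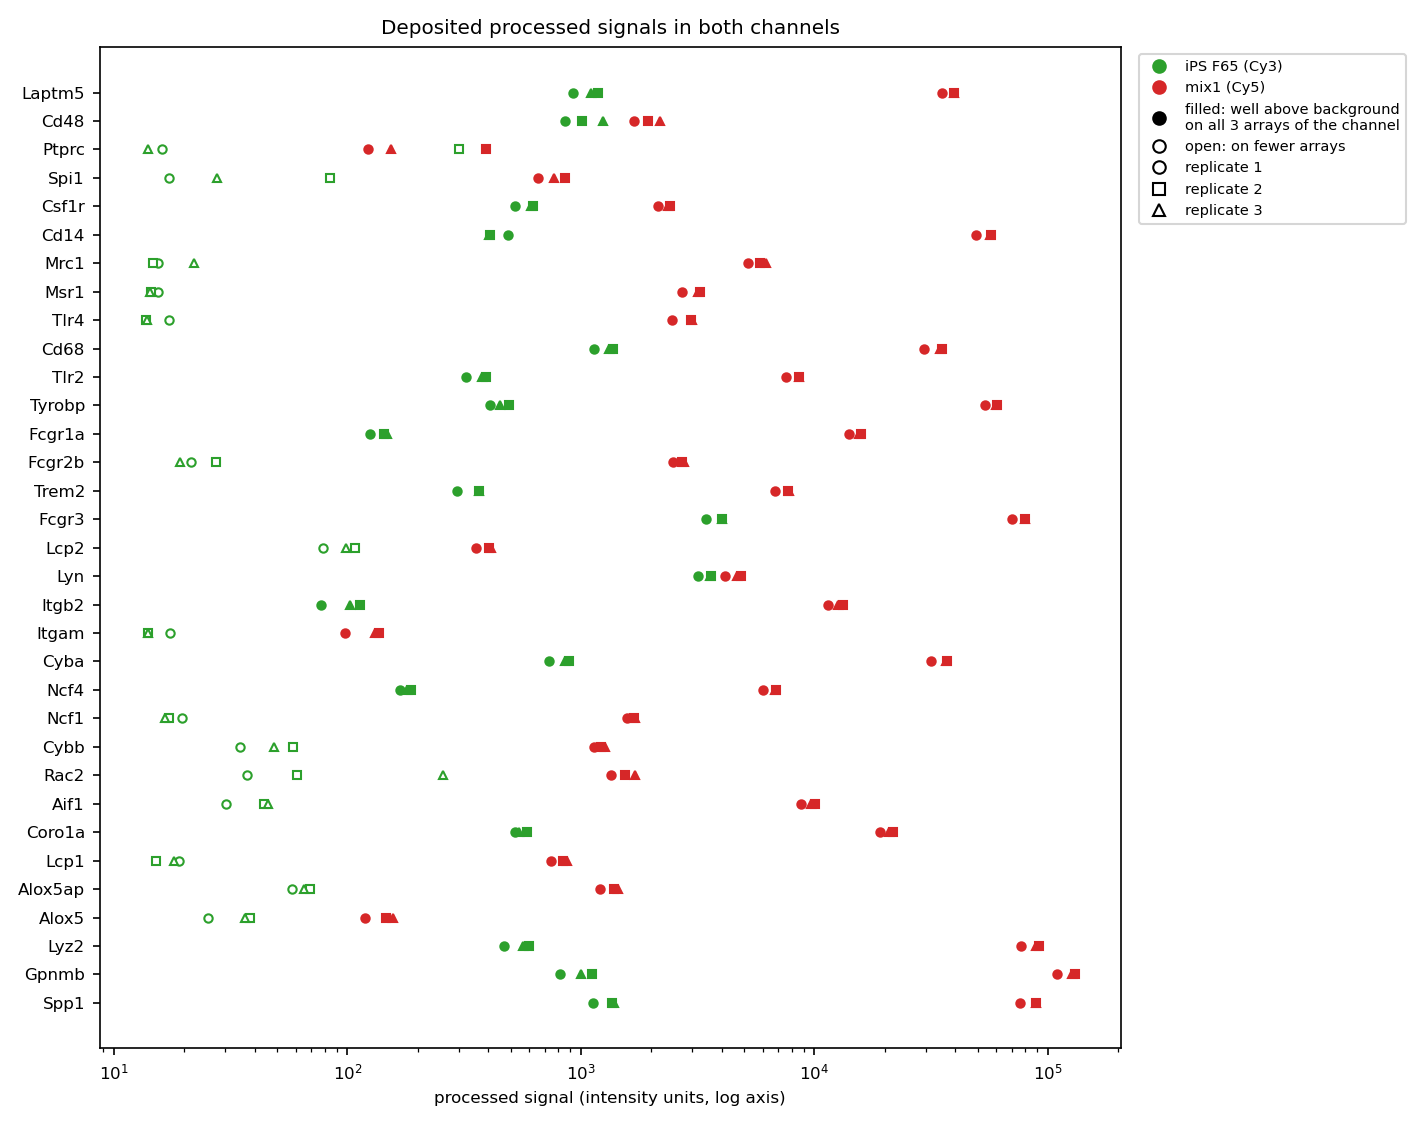
Deposited processed signal (horizontal log axis, intensity units) of each measured macrophage gene in iPS F65 (green) and mix1 (red) on each of the 3 arrays. For every gene but Ptprc all green symbols lie left of all red ones, and open symbols mark genes not well above background on all 3 arrays of the channel. In iPS F65, 5 genes were above background on 1 or 2 arrays and 10 on none, and these entered the test through mix1 alone. The share of all genes that separate in this way was not counted.

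The secreted and lysosomal products showed the widest gap as a role. Lysozyme, the enzyme that cleaves bacterial cell walls (Lyz2, probe named Lyz), had processed signals of 470, 602 and 567 in iPS F65 replicates 1, 2 and 3, and of 76590, 91934 and 88930 in mix1 on the same arrays. Its log2 ratio was -7.53 ± 0.06 (SD, n = 3), a 185-fold decrease (adjusted p = 1.9e-07). The arrays gave nearly the same ratio, and the iPS samples were not at background, so the signal was faint but measurable there. Whether it came from the iPS cells themselves was not tested. Gpnmb, a glycoprotein of phagocytes and melanocytes, gave 815, 1114 and 1005 in iPS F65 against 109480, 130090 and 126650 in mix1, a ratio of -7.23 ± 0.09. Spp1 encodes osteopontin, a secreted phosphoprotein that macrophages share with bone cells and fibroblasts. It had signals of 1124, 1361 and 1386 in iPS F65 and of 75679, 88632 and 89132 in mix1, with a ratio of -6.32 ± 0.03. For all 3 genes the lowest mix1 signal was far above the highest iPS signal.

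The leukocyte membrane genes did not move alike. Laptm5, a lysosomal membrane protein of blood cells, fell by 5.49 on the log2 scale (SD 0.10, 44.8-fold), with signals of 923, 1184 and 1099 in iPS F65 against 35077, 39464 and 39543 in mix1. Cd48, an adhesion ligand of the SLAM family, was lower by only 2.48-fold (log2 ratio -1.31 ± 0.07). It was well above background in both channels, at 856 to 1239 in iPS F65 and 1694 to 2178 in mix1, and its call ended when median centring (-0.67) or the processed signals (-0.91) replaced loess. Ptprc, which encodes the leukocyte phosphatase CD45, was above background in the iPS channel on a single array and so entered the test through mix1 alone. Its brightest probe gave 16, 301 and 14 in iPS F65 and 123, 392 and 154 in mix1, so that replicate 2 stood apart in both channels and the groups overlapped. The ratios of -1.46, -0.58 and -1.41 average to -1.15 ± 0.49 (adjusted p = 0.0062), and without replicate 1 the mean fell just short of 2-fold and was no longer called (adjusted p = 0.033), whereas it was still called without replicate 2 (-1.43) or replicate 3 (-1.02). The other 2 Ptprc probes did not show the high value of replicate 2, with ratios of -1.41 ± 0.13 and -1.48 ± 0.06 and iPS signals of 13.8 to 18.6, not well above background.

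Csf1r and Spi1, the growth factor receptor and the transcription factor that define the lineage, were both lower. Csf1r had signals of 524, 622 and 614 in iPS F65 and of 2136, 2410 and 2359 in mix1. Its ratio of -2.30 ± 0.02 (4.92-fold, adjusted p = 3.77e-07) was one of the evenest of the set, and among the smaller ones for a gene seen in both channels. A second probe for Csf1r was dim in both channels, with signals of 37.2 to 42.7 in iPS F65 and 20.4 to 26.4 in mix1. Spi1 (probe named Sfpi1) gave 17.2, 84.2 and 27.6 in iPS F65 against 655, 854 and 767 in mix1, for a ratio of -3.06 ± 0.32 (8.34-fold, adjusted p = 4.45e-05). Only replicate 2 was above background in the iPS channel, and its ratio of -2.69 was the smallest in size of the 3. Spi1 thus entered the test through mix1 alone, so its p-value is no support for the direction.

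Pattern recognition and scavenger receptors were lower in each of the 6 cases that could be measured. Cd14, the co-receptor that hands bacterial lipopolysaccharide to the Toll-like receptor Tlr4, had signals of 487, 408 and 405 in iPS F65 and of 49224, 57062 and 56352 in mix1. Its ratio was -7.16 ± 0.24 (143-fold). Cd68, a lysosomal glycoprotein used as a macrophage stain, fell from 29505, 34993 and 34452 in mix1 to 1141, 1371 and 1322 in iPS F65, a ratio of -5.02 ± 0.02. Tlr2, a receptor for bacterial lipoproteins, was lower by -4.67 ± 0.03 (25.5-fold) and stood at 323 to 393 in iPS F65. These 3 receptors were above background in every iPS sample, while the other 3 were not in any. Tlr4 had iPS signals of 13.7 to 17.1 against 2459 to 2983 in mix1 and was at least 26.4-fold lower. Such a bound sets the mean mix1 level against the dimmest level still above background on each iPS array, or the probe's own level where higher, and being taken across channels it is open to dye bias. Msr1, the class A scavenger receptor, was at least 28.0-fold lower, and Mrc1, the mannose receptor of alternatively activated macrophages, at least 59.1-fold lower. The haemoglobin scavenger receptor Cd163 read 15 to 18 in iPS F65 and 16 to 26 in mix1 over its 2 probes, not well above background in either, so it has no ratio here.

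Fc receptors and their adaptors were lower in all 5 measured cases, and Tyrobp led them. Tyrobp encodes DAP12, the adaptor with which Trem2 signals, and had signals of 407, 494 and 448 in iPS F65 and of 53545, 60309 and 60053 in mix1. The ratio was -7.22 ± 0.09, a 149-fold decrease (adjusted p = 2.39e-07). Trem2 itself, a receptor for lipids and apoptotic cells, gave 293, 364 and 365 against 6776, 7731 and 7801 and was lower by -4.64 ± 0.06 (24.9-fold). By these probes receptor and adaptor were both above background in every iPS sample. A second, dimmer Tyrobp probe was above it in none and gave a ratio of -3.22, smaller in size than that of Trem2. Fcgr1a, the high-affinity receptor for IgG (probe named Fcgr1), fell from 14057, 15898 and 15489 in mix1 to 126, 143 and 148 in iPS F65, and its ratios of -6.56, -6.57 and -6.57 (SD 0.0044) were the closest of any member. Fcgr3, a low-affinity activating IgG receptor listed today as Fcgr2a in RefSeq, was lower by -4.62 ± 0.01, with 3421, 4010 and 4013 in iPS F65. Fcgr2b, the inhibitory IgG receptor, had iPS signals of 19.3 to 27.3 against 2479 to 2769 in mix1 and was at least 27.1-fold lower. The IgG receptor genes are similar in sequence, and how far their probes bind each other's transcripts was not tested. A probe named only LOC498279, described in the files as similar to the gamma subunit of the IgE receptor, had a ratio of -6.14 ± 0.08. It was not counted as Fcer1g.

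The 2 intracellular signalling genes had small ratios. Lyn, a Src-family kinase that phosphorylates ITAM and inhibitory motifs, had signals of 3169, 3615 and 3582 in iPS F65 against 4136, 4836 and 4674 in mix1. Its ratio of -0.83 ± 0.02 had an adjusted p of 3.2e-06 but did not reach 2-fold, and a second Lyn probe gave -0.47 ± 0.02. The kinase is also used outside blood cells, and it was well above background in all iPS samples. Lcp2, which encodes the adaptor SLP-76, gave 78.7, 108 and 98.3 in iPS F65 against 357, 402 and 412 in mix1, a ratio of -1.55 ± 0.11 (2.92-fold). It was above background in 2 of the iPS samples, and its second probe gave -1.06 ± 0.04.

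The 2 subunits of the integrin Mac-1, by which phagocytes bind complement-coated particles, gave very different ratios. Itgb2, the shared beta2 subunit, gave 76.7, 113 and 102 in iPS F65 and 11406, 13228 and 12607 in mix1, a ratio of -6.64 ± 0.13 (99.9-fold). Itgam, the alpha subunit, read 14.0 to 17.3 in iPS F65 and only 97.3, 137 and 131 in mix1. Its fitted ratio was -1.46 ± 0.06, and the bound is at least 1.60-fold. The small ratio of Itgam thus comes with a mix1 signal close to background, while Itgb2 was bright there.

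Subunits of the phagocyte NADPH oxidase were lower throughout. Cyba, the membrane subunit p22phox, which also pairs with oxidases of other tissues, fell from 31695, 36873 and 36413 in mix1 to 726, 888 and 852 in iPS F65, a ratio of -5.70 ± 0.04 (52.0-fold). Its partner Cybb, the catalytic subunit, was not above background in any iPS sample (34.5 to 58.6, against 1134 to 1267 in mix1) and was at least 10.3-fold lower. Of the cytosolic subunits, Ncf4 (p40phox, named LOC500904 on the array and matched by its gene number) was lower by -5.14 ± 0.06 with iPS signals of 167 to 187, and Ncf1 (p47phox) by at least 12.7-fold. Rac2, the blood cell GTPase that activates the complex, gave 37.3, 61.1 and 257 in iPS F65 and 1340, 1540 and 1707 in mix1. Its ratios of -3.92, -3.76 and -2.82 average to -3.50 ± 0.59, the widest spread of all members, since replicate 3 alone was above background in the iPS channel. Even that sample lay below each mix1 signal, and the adjusted p was 0.000236. Rac2 too entered the test through mix1 alone, so this p-value is no support for the direction.

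Actin regulators of leukocytes were lower in the 3 measured cases. Coro1a, which encodes coronin-1A, gave 519, 588 and 545 in iPS F65 against 19122, 21771 and 20928 in mix1, for a ratio of -5.49 ± 0.06 (45.0-fold). Aif1, the calcium-binding protein Iba1 used as a marker of microglia, was not above background in iPS F65 (30.2 to 45.5) and reached 8725 to 10018 in mix1, at least 76.4-fold lower, the largest bound of the set. Lcp1, the actin bundler L-plastin, was at least 7.34-fold lower. Was, which encodes the Wiskott-Aldrich syndrome protein, was at 13.0 to 30.1 in iPS F65 and 13.1 to 29.8 in mix1, not well above background in either.

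The 2 genes of leukotriene synthesis were both faint in iPS F65. Alox5ap, the membrane protein that presents arachidonic acid to 5-lipoxygenase, gave 58.1, 69.2 and 64.9 in iPS F65 and 1212, 1385 and 1439 in mix1, a ratio of -3.64 ± 0.10 (12.5-fold), with 1 iPS sample above background. Alox5, the lipoxygenase, gave 25.2, 38.3 and 36.4 against 118, 146 and 157. Its ratio of -0.95 ± 0.08 stayed just under the 2-fold limit, with a bound of at least 1.88-fold, and it was called with the processed signals (-2.09).

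There were 47 probes over all members, 43 of them tested, and 10 members had more than 1 probe. In the 8 members with at least 2 tested probes, the tested probes had the same direction but often not the same size. Cd14, Fcgr1a, Lcp2, Mrc1, Ptprc and Tyrobp each had at least 1 tested probe that was too dim in some or all iPS samples. Such a probe passed the filter through mix1 alone and had to come out lower. The shared direction is thus informative only for Fcgr3 and Lyn. The second Tyrobp probe gave -3.22 ± 0.13, against -7.22 for the first, and was not above background in iPS F65 (44.3 to 54.3), so its bound is at least 9.15-fold. The arrays' own coordinates, on build rn3 per the file headers, place the first at chr1:85447221-85447280 and the second at chr1:85447153-85447212, running in the opposite direction. For the 22 members with both a probe direction and a RefSeq strand, the 2 agree in every case, and no other pair of probes of a member runs in opposite directions. Which strand the second Tyrobp probe reads was not tested. A second Fcgr1a probe, at chr2:191061793-191061852, had signals of 143, 181 and 252 in mix1 and ratios of -1.80, -1.68 and -1.01, against -6.57 for the probe at chr2:191057799-191057858. A second Cd14 probe gave -5.78, -4.47 and -4.77, against -6.88, -7.27 and -7.31 for the brighter one. The gene values above are those of the brightest tested probe. With the mean over probes instead, the same 31 of 33 genes were counted lower and the median ratio was -4.67.

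**Figure D3:**
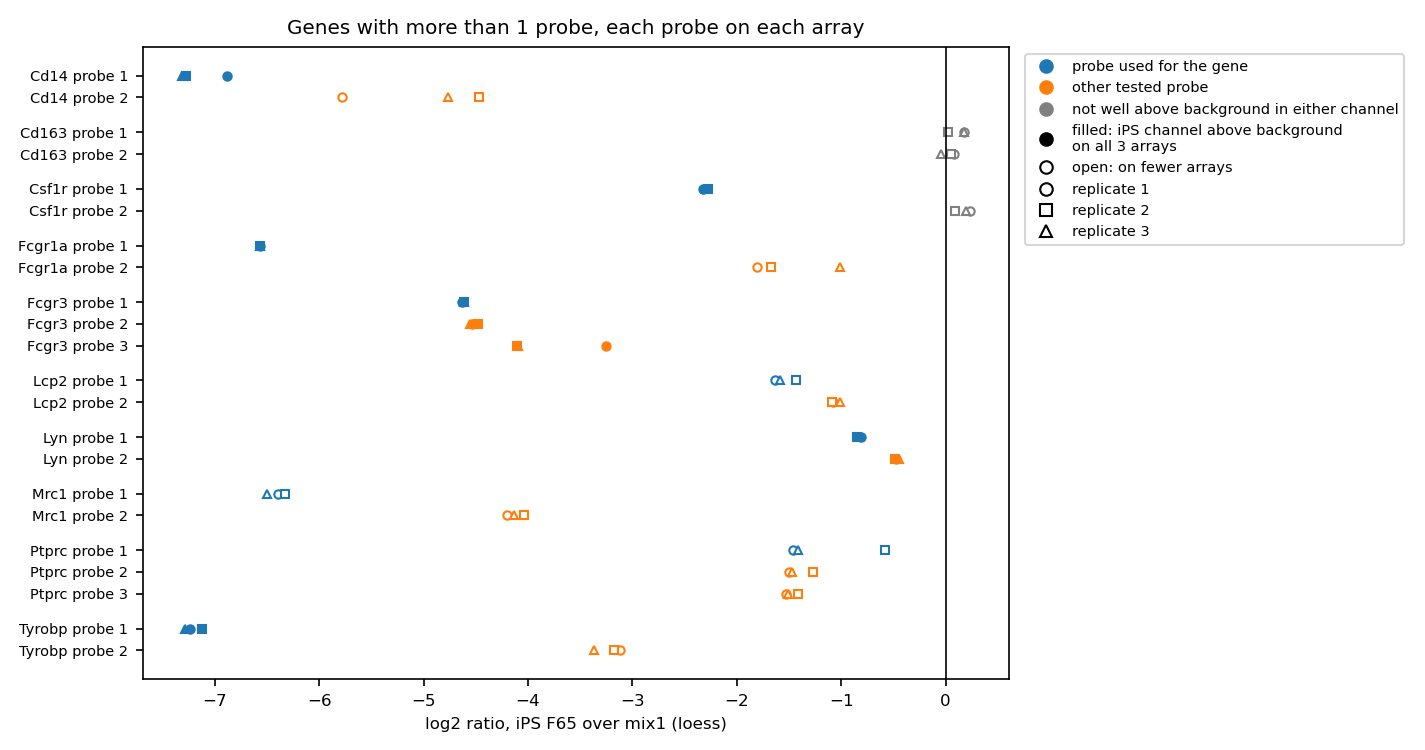
Log2 ratio of iPS F65 over mix1 (horizontal axis, after loess) of each probe of the 10 macrophage genes with more than 1 probe, with 1 symbol per array. The tested Tyrobp, Fcgr1a, Cd14 and Mrc1 pairs lie 2.15 or more apart in mean log2 ratio, while the first 2 Fcgr3 probes lie at -4.62 and -4.53.

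The probes are 60 bases long, and those of a few of these genes are printed to show what was hybridised. They are written as the files give them, each with at least 1 reading frame free of stop codons. The first 4 lines belong to genes seen in mix1 but above background in at most 1 iPS sample, the fifth is Rac2 with its divergent replicate, and the last is the dim second Fcgr1a probe.
Aif1: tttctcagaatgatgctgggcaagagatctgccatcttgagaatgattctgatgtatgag
Msr1: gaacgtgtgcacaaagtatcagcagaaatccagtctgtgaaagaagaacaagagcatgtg
Itgam: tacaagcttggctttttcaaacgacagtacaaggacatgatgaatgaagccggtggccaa
Spi1: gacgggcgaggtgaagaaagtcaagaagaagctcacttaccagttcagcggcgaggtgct
Rac2: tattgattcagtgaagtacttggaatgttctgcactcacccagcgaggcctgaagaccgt
Fcgr1a: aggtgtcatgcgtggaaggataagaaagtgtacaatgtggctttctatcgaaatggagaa
By the array's rn3 coordinates the Spi1 probe lies at chr3:75371622-75371681 and the Msr1 probe at chr16:56293661-56293720, while the Aif1, Itgam and Rac2 probes are given spans longer than the probe. Exons and introns were not annotated here.

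How the signals were scaled mattered most for the genes that were dim in iPS F65. For the 18 genes above background in both channels, the processed signals gave log2 ratios that differed from the loess ratios by -0.37 to 0.43. For the 10 genes not above background in iPS F65 this difference was -2.27 to -1.14, so the loess ratio was the smaller in size for each. Tlr4 moved from -5.30 to -7.55 and Msr1 from -5.55 to -7.68. With the local backgrounds as deposited, without replacing those flagged as uneven, 16 of the 33 were called lower, where 9.56% of all genes were lower and 10.8% higher, and 15 lost their call, all still with a negative ratio. These 15 are Ptprc, Cd48, Spi1, Tlr4, Msr1, Mrc1, Fcgr2b, Lcp2, Itgam, Cybb, Ncf1, Rac2, Lcp1, Aif1 and Alox5ap. Of these, Cd48 alone was above background in iPS F65 on all arrays. With the processed signals 30 of the 33 were called lower, where 24.5% of all genes were lower and 30.9% higher. With median centring 30 were, beside 20.1% and 29.6% of all genes. Without the fold limit all 33 were lower, where 50.4% of all genes were lower and 45.4% higher.

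**Figure D4:**
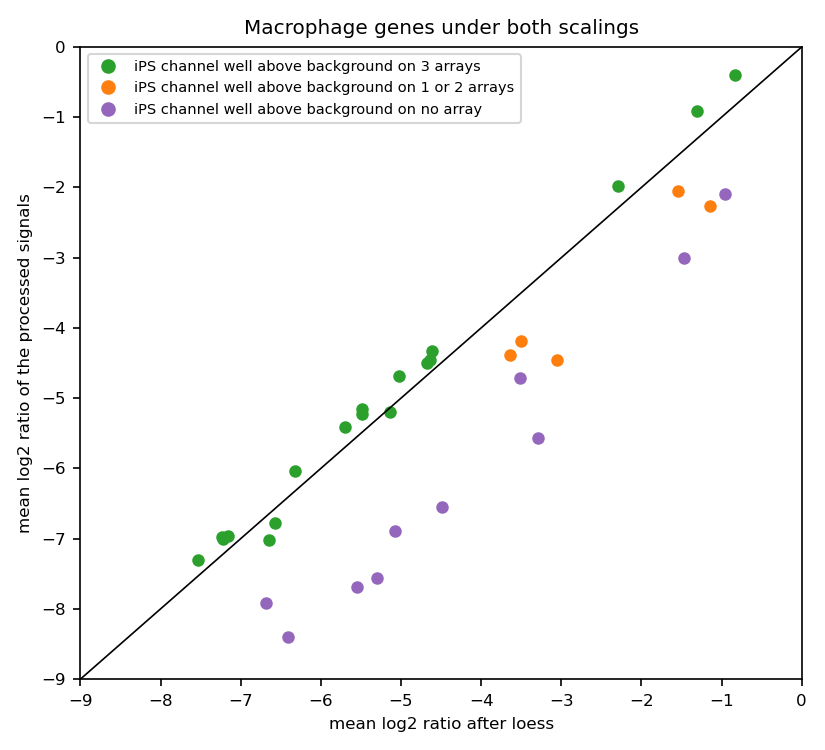
Mean log2 ratio of the 33 measured macrophage genes from the processed signals (vertical axis) against the loess ratio (horizontal axis), with the line of equality. Genes above background in iPS F65 on all 3 arrays lie near the line, and the 10 genes above background on no iPS array differ from it by -2.27 to -1.14.

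Other genes of the same pathways, taken from lists by function, were mostly lower as well, but less uniformly. The counts stand beside 26.1% of all genes lower, or 22.7% in the fit restricted to genes measured in both channels. In each list some genes were above background on all arrays in mix1 alone, as for the members, so the count among genes measured in both channels is given too. All 13 measured of 25 other macrophage genes were lower, with a median of -4.98, 6 of them measured in both channels. The lower genes included Lgals3, a secreted lectin (-7.47 ± 0.07), and Sirpa, the receptor for the CD47 signal that restrains phagocytosis (-6.89 ± 0.10). Not all of the list was seen in mix1, since 9 of the 22 genes with a probe were above background on no mix1 array. Among these 9 were Cx3cr1, Ccr2, Mpeg1 and Siglec1. Of 21 measured phagocyte signalling genes, 16 were lower and 5 neither (median -2.51, and 7 of 9 lower among those measured in both channels). Arhgdib, a cytoskeletal regulator of blood cells, fell by 7.72 on the log2 scale (SD 0.15) and Fermt3, the integrin activator kindlin-3, fell by 5.22 (SD 0.03). The kinase Syk, which binds phosphorylated ITAMs, was at least 4.32-fold lower, but it entered the test through mix1 alone. The 5 not called were Fyb1 (0.35), Plcg2 (0.23), Inpp5d (-0.48), Pik3ap1 (-0.80) and Dock2 (-0.95). Syk and these 5 were named after their values were seen.

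Of 12 measured Toll-like receptor genes, receptors and signalling parts together, 7 were lower and 5 neither (median -1.74, and 4 of 8 lower among those measured in both channels), with Tlr6 at -4.26 ± 0.09 and Tlr3, a receptor for double-stranded RNA, at -3.97 ± 0.08. The shared adaptor gene Myd88 was lower too (-2.00 ± 0.15). The 5 that were not called were Tlr9, the adaptor Tirap and the kinases Irak1, Irak3 and Irak4, at ratios of -0.52, 0.14, -0.63, -0.78 and -0.80. Myd88 and these 5 were named after their values were seen. Of 4 measured NADPH oxidase genes, 2 were lower and 2 neither, and neither of the 2 measured in both channels was called. Nox1 was lower (-3.17 ± 0.02), while Rac1, the widely expressed relative of Rac2, had a ratio of -0.81 ± 0.02 and Nox4 one of -0.50 ± 0.06. These 3 genes too were named after their values were seen.

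Of 10 measured scavenger and phagocytic receptors, 8 were lower and 2 neither (median -2.13, and 5 of 7 lower among those measured in both channels), led by Fcgrt, the neonatal Fc receptor (-7.06 ± 0.13), and Lrp1, an endocytic receptor that fibroblasts also carry (-6.31 ± 0.06). Marco, Mertk and Cd209 of this list were above background on no array in either channel. Of 13 measured transcription factors of myeloid cells, 11 were lower and 2 neither (median -3.92, and 5 of 6 lower among those measured in both channels). Runx1 (-6.29 ± 0.05), a master regulator of definitive blood formation, and Cebpd (-5.85 ± 0.01) led those measured in both channels. Of 5 measured enzymes of leukotriene and prostaglandin synthesis, 3 were lower, 2 of them among the 4 measured in both channels. Ptgs2, the inducible cyclooxygenase, was at -5.00 ± 0.02 and Ptges, which makes prostaglandin E2, at -2.80 ± 0.07, while Lta4h, the next enzyme after Alox5, had a ratio of 0.40 ± 0.02. After loess, none of these pathway lists had a gene called higher.

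**Figure D5:**
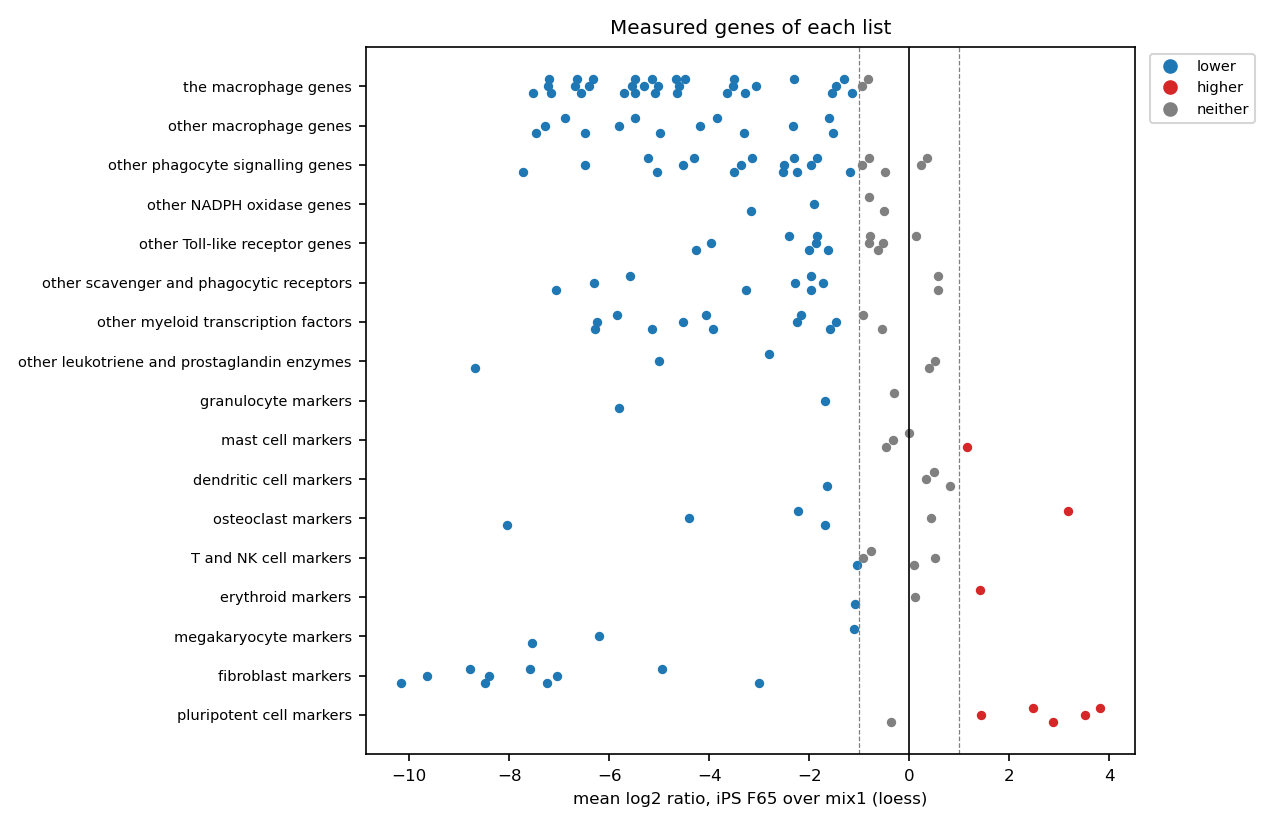
Mean log2 ratio of iPS F65 over mix1 (horizontal axis, after loess) of each measured gene, by list (vertical axis), coloured by call, with dashed lines at a 2-fold change. The macrophage genes, the other macrophage genes and the fibroblast markers lie wholly left of 0. So do the other NADPH oxidase genes, the other myeloid transcription factors, and the granulocyte and megakaryocyte markers. Of 6 measured pluripotent cell markers, 5 are higher, and of the 5 measured in both channels 4 are.

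Markers of the other cells that mix1 could hold moved with the macrophage genes in part, and their share in the results was not tested. All 10 fibroblast markers were lower (median -7.99), with summed processed signals of 21400 to 26200 in iPS F65 and 1610000 to 2040000 in mix1. Of 6 measured osteoclast markers, 4 were lower, among them the protease gene Ctsk (-8.05 ± 0.35), and Calcr was at least 6.34-fold higher. Calcr entered the test through iPS F65 alone, so it had to come out higher. The list summed to 1510 to 1880 in iPS F65 and 44400 to 50400 in mix1. All 3 measured of 8 megakaryocyte markers were lower, with Pf4, platelet factor 4, at -7.54 ± 0.08, and the sums were 299 to 395 and 33400 to 39300. The other lower genes of these lists entered the test through mix1 alone, apart from those measured in both channels. Among the latter, 8 of 8 fibroblast, 2 of 3 osteoclast and 1 of 1 megakaryocyte markers were lower, beside 22.7% of all such genes.

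Granulocytes share much of this gene set, including Itgam and the oxidase. Of 11 granulocyte markers with a probe 7 were above background on no mix1 array, among them Mpo, S100a9 and Csf3r, and S100a8 was above it on 1. The sums were 449 to 470 in iPS F65 and 9270 to 10400 in mix1, nearly all of it Lcn2 (-5.81 ± 0.15, with 8785, 9603 and 9944 in mix1). Few lymphoid markers were above background. Of 16 T and NK cell markers 11 were above background on no mix1 array, with sums of 1100 to 1370 and 1270 to 1500, and all 7 B cell markers with a probe were above it on none. Of the 5 measured T and NK cell markers 1 was lower and 4 were neither, a share near the 26.1% of all genes. The lower gene, Gzmb, entered the test through mix1 alone. Neither of the 2 measured in both channels was called, beside 22.7% of all such genes called lower. Sums for mast cell markers were 2720 to 3530 in iPS F65 and 2520 to 3320 in mix1, and for erythroid markers 1110 to 1320 and 959 to 1140. Dendritic cell markers, of which 1 of 4 measured was lower, again near the share of all genes, summed to 11500 to 13300 and 5990 to 6710.

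Promoters were read for a shared sequence feature, since PU.1, the product of Spi1, binds sites with a GGAA core. RefSeq promoters of the rat assembly GRCr8 were given for 23 of the 37 genes, 24 promoters in all, and the 250 bases before each start were searched on both strands. The letters GAGGAA were in 14 of the 24 (58.3%) and in 23.3% of all 33469 promoters of the same length. AGGAAGT was in 7 (29.2%), against 7.1% of all, and at least 1 of these PU.1 cores, which can overlap each other, was in 16 (66.7%), against 27.2%. The AP-1 motif TGAGTCA was in 2 (8.3%, against 4.0%) and the TATA box TATAAA in 2 (8.3%, against 12.9%). These shares are a description with no test, and a match is not evidence that the factor binds.

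The 4 measured genes whose windows hold both cores are printed, with the cores on either strand in capitals. They are Lyz2 at chr7:54798012-54798261 on the minus strand, Mrc1 at chr17:82157475-82157724 on the plus strand, Tlr4 at chr5:85160997-85161246 on the plus strand and Ptprc at chr13:52259747-52259996 on the minus strand, each read 5′ to 3′ towards the start.
Lyz2: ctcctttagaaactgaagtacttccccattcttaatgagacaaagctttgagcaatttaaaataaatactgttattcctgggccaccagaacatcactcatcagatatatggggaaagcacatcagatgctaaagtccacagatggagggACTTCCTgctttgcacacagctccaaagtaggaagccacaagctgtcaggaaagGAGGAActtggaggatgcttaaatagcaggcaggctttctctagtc
Mrc1: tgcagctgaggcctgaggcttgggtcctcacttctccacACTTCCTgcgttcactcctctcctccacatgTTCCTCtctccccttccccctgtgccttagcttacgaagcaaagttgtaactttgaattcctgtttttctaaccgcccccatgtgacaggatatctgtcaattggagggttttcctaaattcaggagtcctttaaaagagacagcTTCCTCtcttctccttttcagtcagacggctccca
Tlr4: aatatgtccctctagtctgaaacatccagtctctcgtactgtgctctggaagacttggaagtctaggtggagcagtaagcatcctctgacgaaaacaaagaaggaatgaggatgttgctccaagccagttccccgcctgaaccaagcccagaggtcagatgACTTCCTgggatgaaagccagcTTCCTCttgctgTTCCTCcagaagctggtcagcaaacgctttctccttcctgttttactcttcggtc
Ptprc: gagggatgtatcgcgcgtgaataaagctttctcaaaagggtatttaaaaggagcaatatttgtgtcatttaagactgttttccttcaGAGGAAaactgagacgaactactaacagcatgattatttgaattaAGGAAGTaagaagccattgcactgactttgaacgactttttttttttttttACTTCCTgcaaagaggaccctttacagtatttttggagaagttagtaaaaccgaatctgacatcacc
Their ratios spanned the set, from -7.53 for Lyz2 to -1.15 for Ptprc, and Mrc1 and Tlr4 were above background in no iPS sample. Among measured genes with a promoter, neither core was in any window of Spp1, Cyba, Coro1a, Tlr2, Ncf1 and Alox5. Their ratios also differed widely, from -6.32 for Spp1 to -0.95 for Alox5.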

How the data were processed

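The authors scanned with Agilent Feature Extraction 9.5.3.1, per the file headers. For each of 45018 spots per array the deposited files give raw intensity (mean and local background) and processed signals that the software had already corrected for background and dye. In the series matrix, the deposited log2 values equalled the ratio of the green to the red processed signal (41012 probes, largest difference 3.11e-06), so they run as iPS F65 over mix1, uncentred, with medians of 0, -0.01 and -0.06. Here, local backgrounds flagged as uneven were set to the array's median. Mean signals were then corrected with limma normexp (offset 50) and normalised by loess within arrays, control spots at weight 0. Control and outlier spots were left out. A probe was tested if well above background on all 3 arrays in 1 channel, and the brightest tested probe stood for its gene. The mean ratio per gene was set against 0 in limma 3.58.1 (lmFit and eBayes, R 4.3.3) with Benjamini-Hochberg adjustment over 21774 genes. A dim channel gives a bound, for which channels were scaled by Aquantile.

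The members and lists were chosen with earlier results of these data known. All 37 members are named. Of each pathway list the rule takes the 2 called genes with the largest ratios seen in both channels, and of each marker list the brightest; further genes were named after their values were seen. Names follow the RefSeq table of assembly GRCr8. A probe named Fcgr3a was left out because its accession is another gene's. The procedure was checked on simulated intensities. Protein motifs were not analysed here. Alternatives tried concern the background, dye scaling, filter, probe choice, fold limit, each array left out, and the deposited matrix.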

Additional observations from a re-analysis of the deposited data

How the results depend on the processing

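No macrophage gene changed direction under any of the 14 alternatives. For the genes that entered the test through mix1 alone, the filter had fixed the direction. The statement is thus informative only for the 18 measured in both channels on all arrays. With local backgrounds as given, 16 macrophage genes were lower, the median ratio was -3.28, and 2082 of all genes were lower and 2354 higher. The named genes Tlr3, Tlr6, Calcr, Thy1 and Pou5f1 also lost their calls there, with their direction kept. For Calcr, Thy1 and Pou5f1 the filter had fixed that direction. With the processed signals, and equally with the deposited matrix, the median was -5.19 and 30 macrophage genes were lower, since Ptprc (-2.26) and Cd48 (-0.91) lost and Alox5 (-2.09) gained a call. Of all genes 6722 were then higher and 5331 lower, against 3976 and 5687 with loess. With median centring the median was -4.32, 30 macrophage genes were lower (Cd48, -0.67, lost its call), and 6439 of all genes were higher and 4381 lower. These scalings moved the median of all genes from -0.08 to 0.25 and 0.33. With only genes above background in both channels, 17 of 18 macrophage genes were lower, with a median of -5.49. Without a filter on dim probes the median over 35 genes was -4.67, and with the mean over probes it was -4.67 too. With no fold limit, 33 macrophage genes were lower, as were 10967 of all genes, and 9896 were higher. Leaving out 1 array gave 30 to 31 macrophage genes lower and medians of -5.03 to -5.01. Without replicate 1, Ptprc lost its call (adjusted p = 0.033). With no background subtraction, with the background model fitted on gene spots, and with members matched by accession as well, 31 were lower. Signal over background in the iPS channel limits 10 of 33 genes to a bound. No paired analysis was possible because the iPS F65 samples form 1 group, beyond the pairing with the same mix1 within each array that the ratios already hold.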
